A study of Mus musculus with 16 samples.

Results

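The genes of MHC class II antigen presentation were followed across myeloid cells sorted from the tissue around a tendon graft after anterior cruciate ligament reconstruction (ACLR) in mice. The 8 genes were H2-Aa, H2-Ab1, H2-Eb1, Cd74, H2-DMa, H2-DMb1, H2-Oa and Ciita, which were picked by name from a table of 20200 genes of raw RNA-seq read counts, and all 8 were found. Each of 4 populations was sequenced with 2 libraries on postoperative day 1 and 2 on day 14, which gave 8 groups and 16 libraries. All mice were adult male C57BL/6 wild-type animals that had undergone the surgery, and no unoperated tissue was among the samples. Each library came from the pooled cells of several mice, so the replicates showed the spread between pools. The mice were too few for a separate pool per library, so populations of the same day shared mice.

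Live CD45+ cells without lineage markers were the starting point of every sort. CD9+ macrophages were Ly6G- CD11b+ F4/80+ CD9+, and CX3CR1+ macrophages were Ly6G- CD11b+ F4/80+ CX3CR1+ CD9-. F4/80− myeloid cells were Ly6G- CD11b+ F4/80-, a gate that could hold monocytes, dendritic cells and granulocytes other than mature neutrophils. Neutrophils were CD11b+ Ly6G+. By the study's methods, rare cells with both CD9 and CX3CR1 were sorted with the CD9+ macrophages. The levels are given as CPM, the read counts of a gene scaled to a library of 1000000 counts, with TMM factors, a library size correction that leaves out extreme genes.

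MHC class II molecules display peptides from ingested proteins to CD4+ T cells, and are made by dendritic cells, B cells and activated macrophages. An α and a β chain assemble around the invariant chain Cd74, whose last fragment is removed from the peptide groove by the editor H2-DM in acid compartments, while H2-O holds H2-DM back. Ciita is the coactivator that switches the whole set on, by joining factors that sit on conserved X and Y boxes just upstream of these genes.

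H2-Aa and H2-Ab1 encode the α and β chains of I-A, and H2-Eb1 the β chain of I-E. C57BL/6 mice carry a defective α chain gene of I-E, so I-E is not displayed although H2-Eb1 can be transcribed. Of the 8 genes, 6 lay within a stretch of 224 kb of chromosome 17 (GRCm38, the assembly also called mm10) that held 16 genes of the table. In their order along it, these were H2-Oa (chr17:34092340-34095234), H2-DMa (chr17:34135182-34139101), H2-DMb1 (chr17:34153072-34160230), H2-Ab1 (chr17:34263209-34269418), H2-Aa (chr17:34282744-34287827, the only one on the minus strand) and H2-Eb1 (chr17:34305877-34316199). Ciita lay on chromosome 16 (chr16:10480059-10528418), on the plus strand, and Cd74 on another chromosome.

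The sequences just upstream of the start sites in RefSeq are shown for an I-A chain, an I-E chain, an H2-DM chain and an H2-O chain, since these are the kinds of chain whose levels are compared. RefSeq promoter windows (GRCm38.p6, 250 bases before and 50 after a start site) were used where their start site lay near the start of the gene in the table. The RefSeq start lay 10 bases before the start of H2-Eb1 in the table, and 4 (H2-Aa), 39 (H2-Oa) and 119 bases (H2-DMb1) inside the gene, so that the stretch shown for H2-DMb1 falls within the gene as the table places it. Bases 110 to 31 before the start are printed on each gene's own strand, with the Y box core ATTGG and the X box core GNNACNNAT in capitals.
H2-Aa (chr17:34287854-34287933, minus strand): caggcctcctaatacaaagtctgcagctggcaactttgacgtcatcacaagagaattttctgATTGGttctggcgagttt
H2-Eb1 (chr17:34305757-34305836, plus strand): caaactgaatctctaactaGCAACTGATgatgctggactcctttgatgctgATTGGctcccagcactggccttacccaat
H2-DMb1 (chr17:34153081-34153160, plus strand): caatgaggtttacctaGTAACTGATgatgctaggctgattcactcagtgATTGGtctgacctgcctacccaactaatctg
H2-Oa (chr17:34092269-34092348, plus strand): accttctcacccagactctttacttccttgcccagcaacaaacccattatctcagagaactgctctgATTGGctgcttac
The Y box core started 48 bases before the start of H2-Aa, 59 before that of H2-Eb1, 61 before that of H2-DMb1 and 43 before that of H2-Oa. H2-Eb1 also held it on the opposite strand, 35 bases before the start. The X box core stood 91 bases before the start of H2-Eb1, 94 before that of H2-DMb1 and 140 before that of H2-Oa, which lies outside the printed stretch. The window of H2-Aa did not hold these letters. The search found only this spelling, so an X box with other letters would be missed. The match in H2-Oa lay further from its Y box core than those in H2-Eb1 and H2-DMb1. On either strand, the Y box core was found in 37.4% and the X box core in 25.3% of all 32851 promoter windows. An X box core followed on the gene's strand by a Y box core starting 30 to 34 bases further on, a spacing chosen after H2-Eb1 and H2-DMb1 had been seen, was found in 22 windows or 0.067%.

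Depth was 10587857 to 19814119 counts per library on day 1 and 9233952 to 12721779 on day 14. The 16 libraries gave the 8 genes between 828 counts (H2-Oa) and 108419 counts (Cd74) in total. The antigens of the gates were read first. Adgre1, which encodes F4/80, was at 120.4 to 217 CPM in the F4/80+ libraries and at 8.43 to 13.8 CPM in F4/80− cells, and Ly6g was highest in neutrophils. Cd9 was at 142 to 184 CPM in CD9+ and at 6.50 to 21.1 CPM in CX3CR1+ macrophages, but was highest in neutrophils, at 346 to 678 CPM. Cx3cr1 separated the macrophages less, at 133 to 293 CPM in CX3CR1+ and 73.0 to 107.7 CPM in CD9+ libraries. RNA of neutrophil markers was not limited to neutrophils. The 7 markers summed to 425 to 489 CPM in CX3CR1+ macrophages, 2231.5 to 9549 in CD9+ macrophages, 13666 to 18980 in F4/80− cells and 22042 to 46358 in neutrophils. In such sorted bulk samples, fewer cells of a type and less RNA per cell cannot be told apart.

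H2-Aa showed the pattern of the presenting chains. In the F4/80+ populations it was at 198 and 191 CPM (CD9+) and 239 and 216 CPM (CX3CR1+) on day 1, and at 261 and 308 CPM and 297 and 323 CPM on day 14. In F4/80− cells it was at 176 and 147 CPM on day 1 and at 88.1 and 113 CPM on day 14. Neutrophils had 22.5 and 14.0 CPM on day 1 and 9.76 and 8.34 CPM on day 14. Both days of each F4/80+ population thus stood above both days of F4/80− cells, and neutrophils stood below every other library.

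H2-Ab1, the partner of H2-Aa, was at 342 and 377 CPM in CD9+ and at 362 and 297 CPM in CX3CR1+ macrophages on day 1, and at 379.9 and 454 CPM and 427 and 452 CPM on day 14. It was at 232 and 217 CPM in F4/80− cells on day 1 and at 115 and 140.0 CPM on day 14. In neutrophils it was at 36.9 and 29.7 CPM and then at 15.1 and 10.4 CPM. Its mean was higher on day 14 in both macrophage populations and lower in F4/80− cells and neutrophils. In CD9+ macrophages the closest libraries of the 2 days were at 377 and 379.9 CPM.

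H2-Eb1 was at 136 and 202 CPM in CD9+ and at 150.5 and 132 CPM in CX3CR1+ macrophages on day 1, and at 191 and 206 CPM and 192.5 and 176 CPM on day 14. F4/80− cells had 113 and 100.4 CPM on day 1 and 44.2 and 60.8 CPM on day 14, and neutrophils 16.05 and 8.95 CPM followed by 6.02 and 5.35 CPM. In CD9+ macrophages the days overlapped, and the replicates of day 1 stood far apart.

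Cd74 was the most abundant of the 8. It was at 548 and 664 CPM in CD9+ and at 696 and 625 CPM in CX3CR1+ macrophages on day 1, and at 771 and 914 CPM and 1016.5 and 1059.8 CPM on day 14. F4/80− cells had 434 and 392 CPM and then 250.0 and 265 CPM, and neutrophils had 84.7 and 59.8 CPM and then 29.3 and 26.6 CPM. As for H2-Ab1, the mean was higher on day 14 in the macrophages and lower in the other cells.

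The 4 genes kept similar proportions to each other. Scaled to exon length, H2-Aa stood at 0.320 to 0.548, H2-Eb1 at 0.399 to 0.708 and Cd74 at 2.45 to 3.91 times the level of H2-Ab1 in the same library, over all 16 libraries. In CX3CR1+ macrophages on day 14 the levels per kb of exon were 618 ± 18.2 CPM for Cd74, 171 ± 6.99 for H2-Ab1, 94.7 ± 6.08 for H2-Eb1 and 81.7 ± 4.94 for H2-Aa (SD, n = 2). H2-DMa (18.9 ± 0.484), H2-DMb1 (18.6 ± 1.21), Ciita (6.05 ± 0.390) and H2-Oa (1.05 ± 0.0018) followed on the same scale. The length was that of all annotated exons of a gene together, which can exceed its main transcript. It was 3798 bases for H2-Aa, 1944 for H2-Eb1, 3448 for H2-DMa and 1407 for H2-Oa. The order of genes depends on it: before scaling, H2-Aa was at 310 CPM and H2-Eb1 at 184 CPM in this group.

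**Figure D1:**
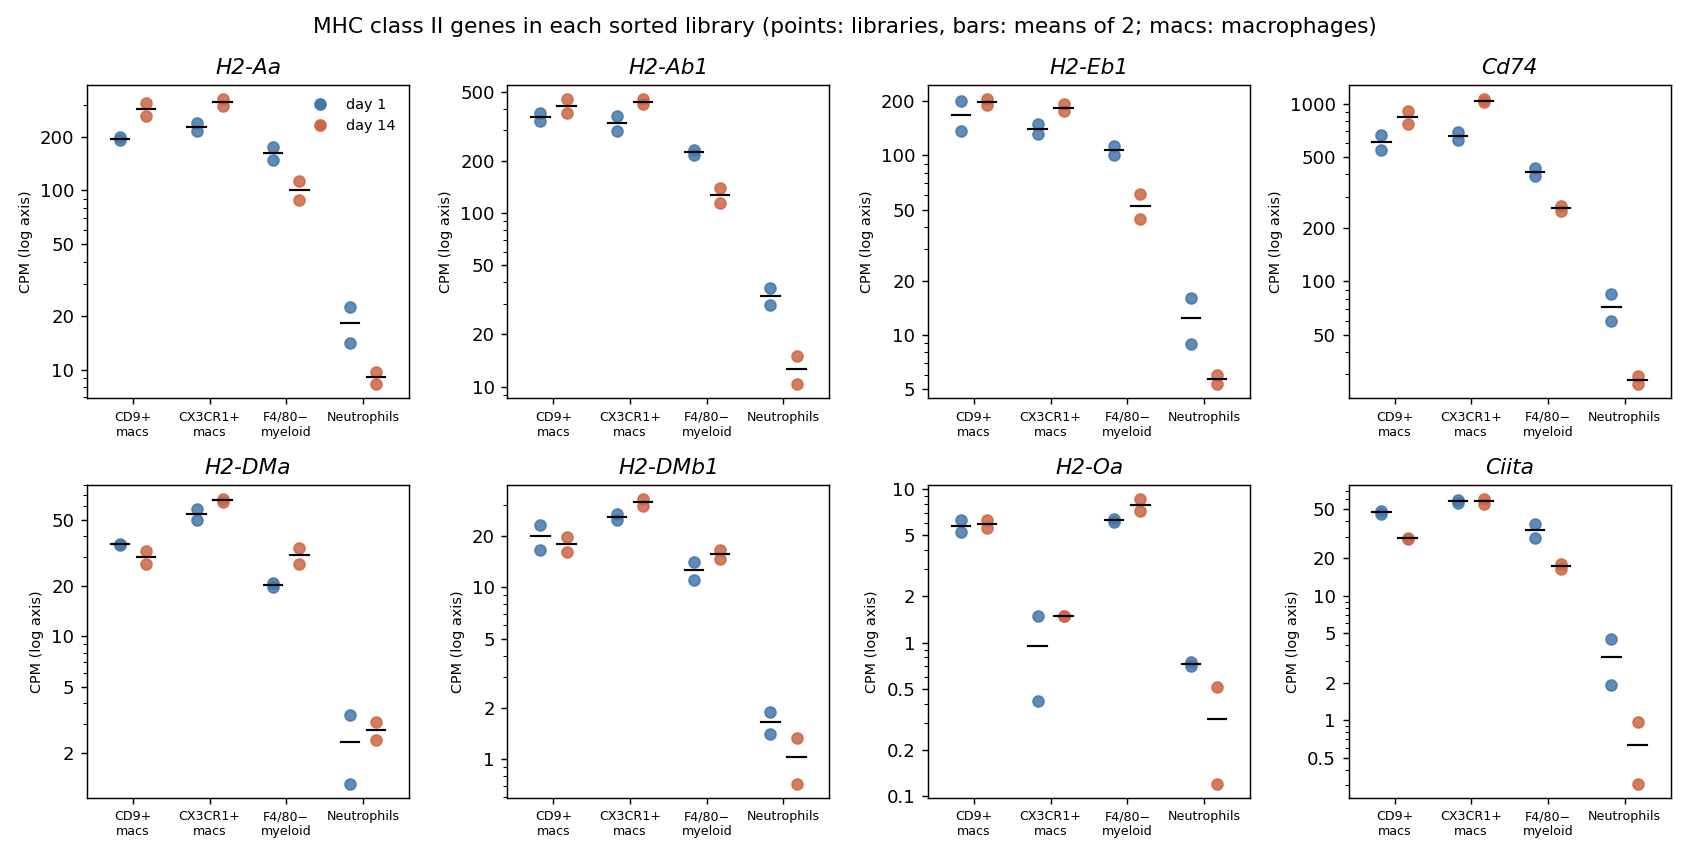
CPM of each gene on a log axis that differs between panels, by population and day; points are the 16 libraries and bars the means of 2. All genes but H2-DMa had their lowest mean in neutrophils on day 14. H2-Oa was also low in CX3CR1+ macrophages, at 1.49 CPM or less, and at 5.28 CPM or more in CD9+ macrophages and F4/80− cells.

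On day 1 both genes of the peptide editor H2-DM ranked the populations as H2-Aa did. On day 14, H2-DMa in F4/80− cells and CD9+ macrophages overlapped. H2-DMa was at 57.45 and 49.9 CPM on day 1 and at 66.4 and 64.0 CPM on day 14 in CX3CR1+ macrophages, the highest of the populations on both days. CD9+ macrophages had 35.4 and 35.8 CPM and then 32.3 and 27.1 CPM, and F4/80− cells 19.6 and 21.0 CPM and then 33.9 and 27.2 CPM. In neutrophils it was at 3.37 and 1.32 CPM on day 1 and at 2.41 and 3.09 CPM on day 14. F4/80− cells, whose chains were lower on day 14 than on day 1, were thus above their day 1 level for H2-DMa.

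H2-DMb1 ran in parallel. It was at 26.7 and 24.7 CPM and then at 29.8 and 32.7 CPM in CX3CR1+ macrophages, and at 16.4 and 23.1 CPM and then at 16.03 and 19.6 CPM in CD9+ macrophages. F4/80− cells had 14.0 and 11.1 CPM on day 1 and 16.4 and 14.7 CPM on day 14, and neutrophils 1.87 and 1.40 CPM and then 0.723 and 1.34 CPM. H2-DMb1 has a close copy, H2-DMb2, and reads of the pair may be split or lost in counting. H2-DMb2 itself was at 1.57 to 9.26 CPM over the 16 libraries and went against H2-DMb1 in F4/80− cells, being higher than in CX3CR1+ macrophages on day 1 (log2 fold change 1.86, SE 0.38, adjusted p = 0.0012).

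H2-Oa, the α chain of the H2-DM inhibitor H2-O, was low in the population in which H2-DM was highest. In CX3CR1+ macrophages it had 34 and 8 counts on day 1 (1.49 and 0.418 CPM) and 17 and 16 counts on day 14 (1.48 and 1.485 CPM). CD9+ macrophages had 6.29 and 5.28 CPM and then 5.57 and 6.29 CPM, and F4/80− cells 6.44 and 6.09 CPM and then 7.20 and 8.65 CPM. Neutrophils had 10 and 8 counts on day 1 and 1 and 5 counts on day 14, or 0.120 to 0.750 CPM. All CX3CR1+ libraries lay below all libraries of CD9+ macrophages and F4/80− cells, at a depth where a few counts made up the value.

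Ciita was at 59.1 and 55.9 CPM on day 1 and at 55.1 and 60.3 CPM on day 14 in CX3CR1+ macrophages. In CD9+ macrophages it was at 45.9 and 48.6 CPM and then at 29.5 and 28.5 CPM, and in F4/80− cells at 38.2 and 29.1 CPM and then at 16.5 and 18.0 CPM. Neutrophils had 60 and 22 counts on day 1 (4.50 and 1.93 CPM) and 8 and 3 counts on day 14 (0.964 and 0.309 CPM). The mean was lower on day 14 in all populations but CX3CR1+ macrophages, where the means were 57.5 and 57.7 CPM.

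These differences were tested with edgeR on all 11998 genes with a group mean of at least 3 CPM in at least 1 group. A gene was called when its Benjamini-Hochberg adjusted p was under 0.05 and its fold change at least 2 in either direction, which is 1 on the log2 scale. H2-Aa, H2-Ab1, H2-Eb1 and Cd74 reached that level in all 8 groups, whereas H2-DMa, H2-DMb1 and Ciita reached it in 6 and H2-Oa in 4. The latter were tested because they were high somewhere, so that counts of called genes serve as descriptions. Beside the count of the 8 genes in each comparison stands the share of all tested genes that were called in the same direction.

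The comparison of day 14 with day 1 asked how each population changed during the early healing of the graft. In neutrophils, 5 of the 8 genes fell, against 10.9% of all genes tested. The fall was largest for Ciita (log2 fold change -2.40, SE 0.47, adjusted p = 0.00152), followed by H2-Ab1 (-1.40, SE 0.19, adjusted p = 7.5e-05), Cd74 (-1.37, SE 0.17, adjusted p = 2.95e-05), H2-Eb1 (-1.15, SE 0.29, adjusted p = 0.00795) and H2-Aa (-1.02, SE 0.22, adjusted p = 0.00286). H2-DMa (0.21, SE 0.34), H2-DMb1 (-0.65, SE 0.39) and H2-Oa (-1.12, SE 0.75) did not pass the test. Replicate 1 of day 1 was the higher for all 8 genes, and without it H2-Aa was at -0.63 and H2-Eb1 at -0.65 and neither was called, while H2-DMa was called higher at 1.07. Without replicate 2 of day 14, H2-Aa was at -0.91 and H2-Eb1 at -1.06, and neither was called. Under DESeq2 the value of H2-Aa was -0.99, just short of the fold threshold, and the gene was not called.

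Markers of macrophages moved with these falls in the neutrophil gate. The sum of 8 monocyte and macrophage markers was at 859 to 1017 CPM on day 1 and at 552 to 575 CPM on day 14. Of these 8 markers, 6 fell, against 10.9% of all genes. The sum of 12 dendritic cell markers was at 71.8 to 96.6 CPM and then at 33.3 to 36.0 CPM, with Ccr7 at 0 in both libraries of day 1 and Xcr1 at 0 in both of day 14. Itgax made up most of that sum, and the other 11 genes summed to 3.34 to 7.20 CPM on day 1 and to 6.38 CPM in both libraries of day 14. Of the 10 dendritic cell markers tested, 1 was called higher and 1 lower, against 14.1% of all genes in either direction. The sum of the neutrophil markers was at 22042 to 34441 CPM on day 1 and at 44501 to 46358 CPM on day 14. Ly6g, the antigen of the gate, was at 81.7 to 286 CPM in these 4 libraries. Their part in the result was not tested.

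In F4/80− cells, only H2-Eb1 fell past both thresholds (log2 fold change -1.03, SE 0.22, adjusted p = 0.0127), against 2.24% of all genes tested. A further 4 genes had an adjusted p under 0.05 with a smaller fold: Ciita (-0.96, SE 0.25), H2-Ab1 (-0.82, SE 0.17), Cd74 (-0.68, SE 0.16) and H2-Aa (-0.68, SE 0.18). H2-DMa was at 0.59 (SE 0.23, adjusted p = 0.151), H2-DMb1 at 0.31 (SE 0.23) and H2-Oa at 0.34 (SE 0.45). Without replicate 1 of day 1 the value of H2-Eb1 was -0.93, and without replicate 1 of day 14 it was -0.81, so that no gene was called in either case. The dendritic cell markers summed to 140.7 to 141 CPM on day 1 and to 164 to 172 CPM on day 14. Of the 10 tested, 1 was called higher, against 121 of all 11998 genes. The neutrophil markers summed to 13666 to 15270 CPM on day 1 and to 17471 to 18980 CPM on day 14. Of these 7 markers, 3 were called lower, against 2.24% of all genes. Adgre1 was between 8.43 and 13.8 CPM. Their part in the result was not tested.

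In CD9+ macrophages none of the 8 genes was called by edgeR or DESeq2, against 8.23% of all genes in either direction, and 3 had an unadjusted p under 0.05. These were H2-Aa (log2 fold change 0.55, SE 0.18, adjusted p = 0.0487), Cd74 (0.48, SE 0.16, adjusted p = 0.0509) and Ciita (-0.70, SE 0.24, adjusted p = 0.0592). Replicate 1 of day 1 stood apart from replicate 2 in neutrophil markers, at 7603 against 2231.5 CPM in sum. In CX3CR1+ macrophages none was called by edgeR or DESeq2 either, against 5.86% of all genes in either direction. There, 3 genes had an unadjusted p under 0.05, and of them Cd74 passed the adjusted p only, at 0.65 (SE 0.16, adjusted p = 0.0134). H2-Aa was at 0.45 (SE 0.18), H2-Ab1 at 0.42 (SE 0.17) and Ciita at 0.00 (95% interval -0.50 to 0.51).

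**Figure D2:**
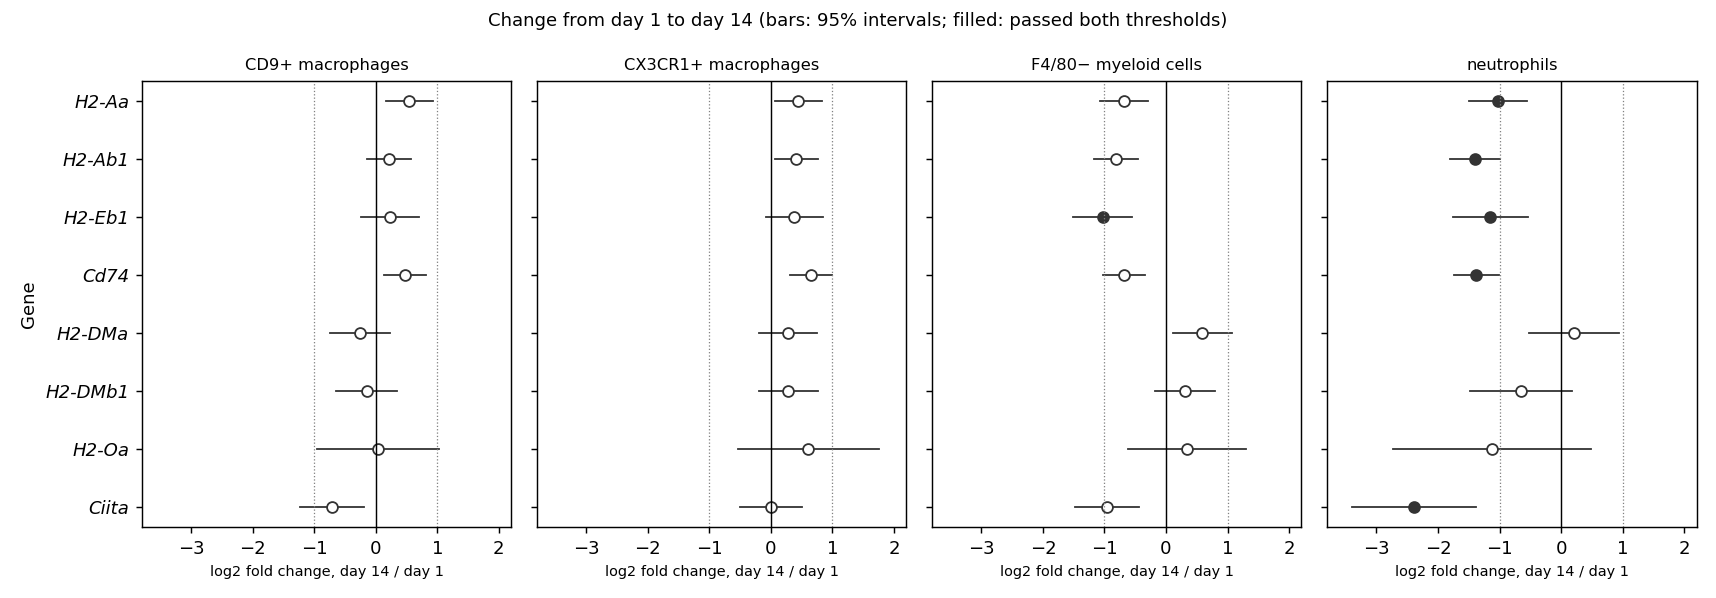
Log2 fold change of day 14 over day 1 for the 8 genes in each population, with 95% intervals; filled points passed both thresholds, and dotted lines mark 2-fold changes. The chains and Cd74 lay right of 0 in both macrophage populations and left of 0 in F4/80− cells and neutrophils, where the lowest value was that of Ciita in neutrophils at -2.40.

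Whether these changes differed between populations was tested with interaction terms. The change in F4/80− cells was lower than that in CX3CR1+ macrophages for 4 genes, H2-Aa, H2-Ab1, H2-Eb1 and Cd74, against 0.508% of all genes, with log2 differences of -1.13 to -1.41. Against CD9+ macrophages it was lower for 3, H2-Aa, H2-Ab1 and Cd74, against 1.1%, with differences of -1.03 to -1.23, and H2-Eb1 was at -1.26 with an adjusted p of 0.0523. H2-Eb1 was called there under DESeq2 (-1.25, adjusted p = 0.00618) and under 3 other scalings and no filter, at -1.25 to -1.49. With any 1 library left out, the first count was between 0 and 2, with 0 reached without replicate 1 of F4/80− cells on day 14. The second was between 0 and 4, with 0 reached without replicate 1 of F4/80− cells of either day or replicate 2 of CD9+ macrophages on day 14, and 1 without replicate 2 of F4/80− cells of either day. H2-DMa (0.31, SE 0.32) and H2-DMb1 (0.03, SE 0.32) were not called against CX3CR1+ macrophages, with 95% intervals of -0.36 to 0.98 and -0.65 to 0.72.

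The change in CX3CR1+ macrophages was higher than that in neutrophils for 5 genes (the chains, Cd74 and Ciita), against 7.3% of all genes. For CD9+ macrophages the same was true of 4 genes (the chains and Cd74), against 6.7%, and Ciita at 1.69 was called under DESeq2 (1.68, adjusted p = 0.0223) and with scaling to library size alone (1.85). Between F4/80− cells and neutrophils none of the 8 was called by edgeR or DESeq2, against 7.73% in either direction, and 4 had an unadjusted p under 0.05. Between the macrophage populations none was called by either tool, against 2.28%, and none had an unadjusted p under 0.05. For Ciita the difference there was 0.71 (95% interval -0.01 to 1.43), the change in CX3CR1+ macrophages being the higher.

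Between the macrophage populations at one time, H2-Oa was called on both days and H2-DMa on day 14. CX3CR1+ macrophages had less H2-Oa than CD9+ macrophages on day 1 (log2 fold difference -2.57, SE 0.51, adjusted p = 0.00291), the only one of the 8 that was called lower, against 6.36% of all genes. In a fit of only the 4 libraries compared, that call was lost (-2.56, adjusted p = 0.121). On day 14 H2-Oa was lower again (-1.99, SE 0.51, adjusted p = 0.00904), 1 gene of 8 against 9.65%. H2-DMa was higher (1.13, SE 0.23, adjusted p = 0.00158), 1 gene of 8 against 4.55%. H2-DMa on day 1 (0.59, adjusted p = 0.0876) and H2-DMb1 on day 1 (0.39) and day 14 (0.81, adjusted p = 0.0164) were not called. Without either of the CX3CR1+ libraries of day 14, H2-Oa kept a value of -1.99 or -1.98 and was not called, with an adjusted p of 0.0656 without replicate 1 and 0.0688 without replicate 2. Ciita stood at 0.99 (SE 0.24, adjusted p = 0.00667), just under the fold threshold, and was called without replicate 1 of either population on day 14, at 1.02 and 1.06. The 3 chains differed by -0.26 to 0.22 on day 1 and by -0.11 to 0.13 on day 14, and their 95% intervals lay within -0.73 and 0.61.

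F4/80− cells were set against CX3CR1+ macrophages next. On day 1, 2 genes were lower, H2-DMa (-1.40, SE 0.23, adjusted p = 0.00016) and H2-DMb1 (-1.04, SE 0.23, adjusted p = 0.00208), against 10.2% of all genes. H2-Oa was higher (2.68, SE 0.50, adjusted p = 0.000589), 1 gene of 8 against 10.9%. The chains, Cd74 and Ciita lay between -0.77 and -0.40, and 4 of the 5 had an adjusted p under 0.05. H2-DMb1 was no longer called without replicate 1 of CX3CR1+ macrophages (-0.97) or replicate 2 of F4/80− cells (-0.88), or with scaling to library size alone (-0.999).

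On day 14, 7 of the 8 genes were lower in F4/80− cells than in CX3CR1+ macrophages, against 11.1% of all genes, and H2-Oa was higher (2.41, SE 0.51, adjusted p = 0.00153), against 10.4%. Cd74 had the largest difference (-2.01, SE 0.16, adjusted p = 2.02e-07). H2-Eb1 (-1.81, SE 0.23), H2-Ab1 (-1.79, SE 0.17), Ciita (-1.74, SE 0.25) and H2-Aa (-1.62, SE 0.18) were next, and H2-DMa (-1.09, SE 0.23) and H2-DMb1 (-1.004, SE 0.23) lay close to the threshold. Without replicate 2 of F4/80− cells neither H2-DM gene was called, at -0.93 for H2-DMa and -0.91 for H2-DMb1, and H2-DMb1 was also lost without replicate 2 of CX3CR1+ macrophages (-0.93) and with the pool as a block (-0.997, adjusted p = 0.00402).

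Against CD9+ macrophages, F4/80− cells showed none of the 8 called on day 1 by edgeR or DESeq2, against 15.4% of all genes in either direction. There, 5 genes had both an unadjusted and an adjusted p under 0.05, with values of -0.81 (H2-DMa) to -0.55 (Cd74). On day 14, 4 genes were lower, against 6.59%: H2-Eb1 (-1.92, SE 0.23, adjusted p = 3.07e-05), Cd74 (-1.71, SE 0.16, adjusted p = 3.17e-06), H2-Ab1 (-1.71, SE 0.17, adjusted p = 5e-06) and H2-Aa (-1.498, SE 0.18, adjusted p = 4.17e-05). H2-DMa (0.04, 95% interval -0.45 to 0.53) and H2-DMb1 (-0.19, 95% interval -0.69 to 0.31) were not called. The 3 sets of comparisons share libraries and are not independent of each other.

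**Figure D3:**
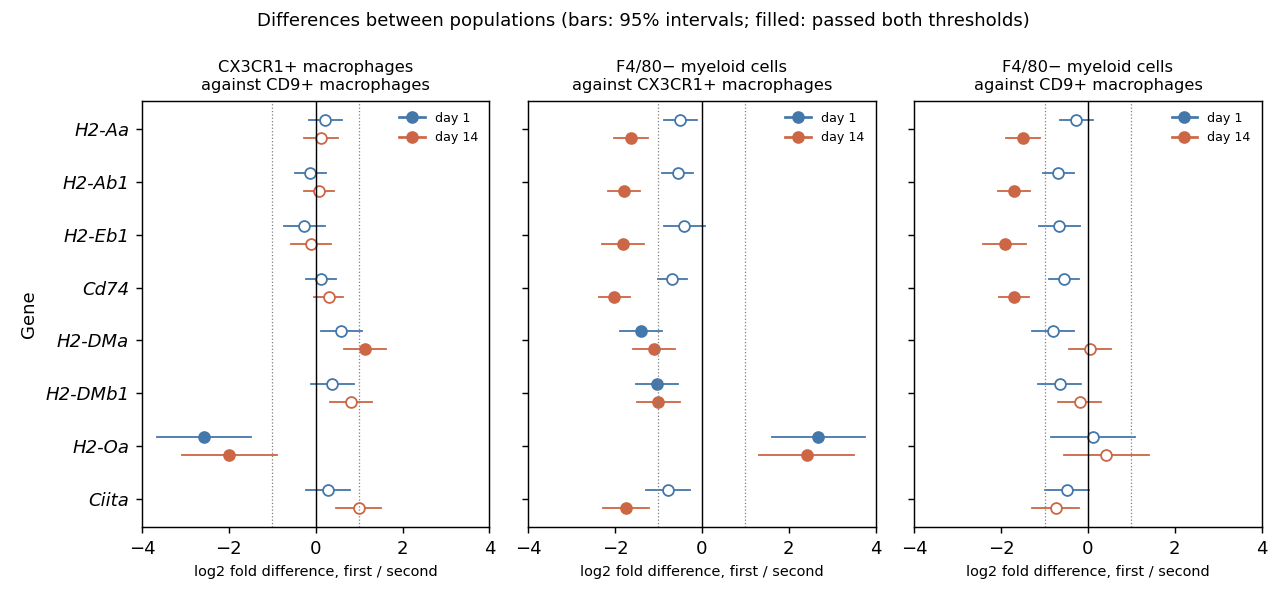
Log2 fold differences between populations on day 1 (blue) and day 14 (orange) with 95% intervals; filled points passed both thresholds. The chains and Cd74 lay between -1.498 and -2.01 in F4/80− cells on day 14 against either macrophage population, and H2-Oa was the only gene on the opposite side from the others where F4/80− cells were set against CX3CR1+ macrophages.

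All populations were far above neutrophils. On day 1, 7 of the 8 genes were higher in CX3CR1+ macrophages, against 26.9% of all genes, and H2-Oa was not called (0.41, 95% interval -0.82 to 1.64). All 8 were higher in CD9+ macrophages, against 27.9%, and in F4/80− cells, against 26.4%. On day 14 the count was 8 of 8 in CX3CR1+ macrophages (27.1%), in CD9+ macrophages (29.6%) and in F4/80− cells (27.4%). H2-Oa in CX3CR1+ macrophages, at 2.14 (SE 0.70), lost its call without replicate 1 of neutrophils on day 14, which had 1 count, with a value of 1.51.

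The gap was wide for each chain. H2-Ab1 was 10.8-fold higher in CD9+ macrophages than in neutrophils on day 1 and 32.9-fold on day 14, and the folds in CX3CR1+ macrophages were 9.89 and 34.7. In F4/80− cells, H2-Ab1 was 6.74-fold higher on day 1 and 10.1-fold on day 14. Ciita had the widest gap, at 92.7-fold in CX3CR1+ macrophages on day 14, against a group with 8 and 3 counts. Scaling to library size alone moved the median of all genes by 0.33 to 0.61 on the log2 scale in the comparisons with neutrophils and by 0.24 to 0.28 in those of CX3CR1+ macrophages and F4/80− cells with CD9+ macrophages on day 1. The differences of all 8 genes from neutrophils kept their sign under that scaling, while on day 1 the uncalled values of H2-Ab1 and H2-Eb1 (CX3CR1+ against CD9+ macrophages) and of H2-Aa (F4/80− cells against CD9+ macrophages) changed theirs.

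Ratios within a library do not depend on that scaling. On the scale of CPM per kb of exon, H2-DMa stood at 15.7 and 48.7 times H2-Oa in CX3CR1+ macrophages on day 1 and at 18.3 and 17.6 times on day 14. In CD9+ macrophages the ratio was 2.30 and 2.77 and then 2.37 and 1.76, and in F4/80− cells 1.24 and 1.41 and then 1.92 and 1.28. All CX3CR1+ libraries lay above all others, neutrophils included, where few counts gave ratios of 0.765 to 8.16. The CX3CR1+ ratios also rested on few counts of H2-Oa, 34 and 8 on day 1 and 17 and 16 on day 14. They hold the same counts as the comparisons of the single genes above.

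The ratio of Ciita to H2-Aa was 0.0921 and 0.101 in CD9+ macrophages on day 1 and 0.0449 and 0.0369 on day 14. In CX3CR1+ macrophages it was 0.0985 and 0.103 and then 0.0739 and 0.0743, and in F4/80− cells 0.0866 and 0.0788 and then 0.0747 and 0.0634. The mean ratio was lower on day 14 in all populations, also in neutrophils (0.0797 and 0.0548, then 0.0393 and 0.0148). H2-DMa against H2-Aa went from 0.123 and 0.157 to 0.424 and 0.264 in F4/80− cells, and from 0.197 and 0.207 to 0.136 and 0.0969 in CD9+ macrophages.

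**Figure D4:**
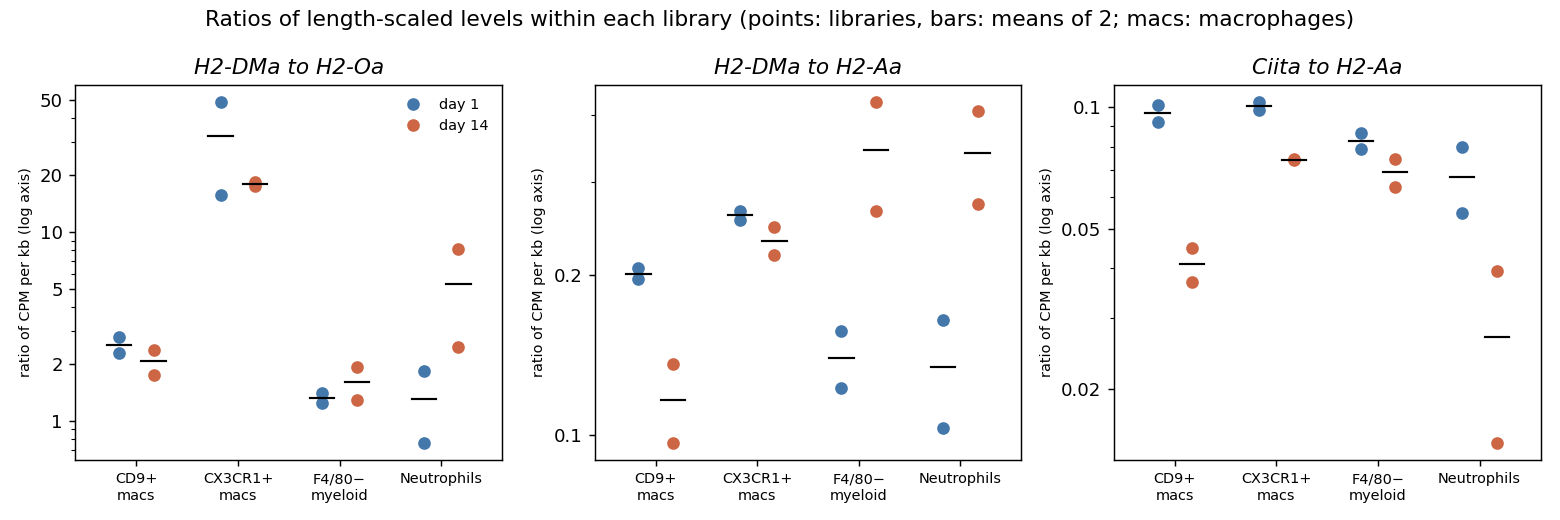
Ratios of length-scaled levels (CPM per kb of exon, log axes that differ between panels) of H2-DMa to H2-Oa, H2-DMa to H2-Aa and Ciita to H2-Aa in each library; bars are means of 2. The 4 CX3CR1+ libraries had H2-DMa to H2-Oa ratios of 15.7 to 48.7, on 8 to 34 counts of H2-Oa. The ratio of H2-DMa to H2-Aa was higher on day 14 than on day 1 in F4/80− cells and neutrophils and lower in both macrophage populations.

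A list of 42 other genes of the pathway was read alongside, of which 38 were in the table and 37 were tested. Over time, 1 of the 37 was called higher and 5 lower in CD9+ macrophages, 1 higher and 3 lower in CX3CR1+ macrophages, 2 lower in F4/80− cells, and 1 higher and 9 lower in neutrophils. In either direction these were 16.2% of the 37 against 8.23% of all genes (CD9+), 10.8% against 5.86% (CX3CR1+), 5.41% against 3.25% (F4/80−) and 27% against 14.1% (neutrophils). None of the 7 subunits of the X and Y box factors (Rfx5, Rfxap, Rfxank, Nfya, Nfyb, Nfyc and Creb1) was called over time in any population. Of 8 genes of the interferon-γ pathway, an inducer of Ciita, only the kinase gene Jak2 was called over time, in neutrophils (-1.66). Ifngr1, the receptor chain that binds the cytokine, was higher in CX3CR1+ than in CD9+ macrophages on day 1 (1.09).

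The proteases that prepare peptides and trim Cd74 changed in their own way. Ctss, the protease that cuts the last piece of Cd74 before H2-DM acts, fell in neutrophils (-2.61) together with Ctsb (-2.05), the asparagine protease gene Lgmn (-3.37) and Ifi30 (-1.69), whose product reduces disulfide bonds. Ctsl fell in CD9+ macrophages (-1.90), CX3CR1+ macrophages (-1.90) and F4/80− cells (-1.32). Of the 9 processing genes, 4 fell in neutrophils, against 10.9% of all genes, and 1 in F4/80− cells, against 2.24%. In CD9+ macrophages 2 fell, against 3.48%, and in CX3CR1+ macrophages 3, against 416 of all 11998 genes. Ifi30 had means of 420 CPM on day 1 and 159 CPM on day 14 in CD9+ macrophages. In CX3CR1+ macrophages the means of Lgmn were 345 and 92.6 CPM. All 9 processing genes were lower in F4/80− cells than in CX3CR1+ macrophages on day 1, with Ctss at -3.14 and Lgmn at -4.23, against 10.2% of all genes.

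Costimulatory ligands, which T cells need beside the peptide, fell in CD9+ macrophages for Cd80 (-1.93), Cd86 (-1.79) and the inhibitory ligand Cd274 (-1.47), 3 of 6 on the list against 3.48% of all genes. In neutrophils 4 of the 6 fell, against 10.9%, with Pdcd1lg2 at -4.39, Cd274 at -3.41, Cd80 at -1.33 and Icosl at -1.18, and Cd80 fell in F4/80− cells (-1.17). None of the 6 was called in CX3CR1+ macrophages, and Cd86 changed differently in the 2 macrophage populations (interaction 1.55). Cd83, whose product slows the removal of class II molecules from the surface, was higher in CD9+ macrophages on day 14 than on day 1 (1.05), while March1, the ligase gene that drives their removal, was higher in CX3CR1+ than in CD9+ macrophages on day 14 (1.74).

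H2-Ob, the partner of H2-Oa, was higher in F4/80− cells than in CX3CR1+ (2.24) and CD9+ macrophages (2.14) on day 1, where H2-Oa was at 0.11 (SE 0.46) against the latter. On day 14 H2-Ob was called against neither, at 1.31 and 0.73. It was at 6.19 to 8.83 CPM in F4/80− cells and at 0.309 to 0.702 CPM in neutrophils, again at few counts. Of the 10 other genes of the chromosome 17 stretch, 7 were tested, among them Tap1, Tap2, Psmb8 and Psmb9 of the class I pathway. None of these 7 was called lower over time in any population, against 2.24% (F4/80− cells) to 10.9% (neutrophils) of all genes. A count of none among 7 is close to these shares. H2-DMb2 was the only one called higher, in CX3CR1+ macrophages (1.51) and in neutrophils (1.26), against 287 and 378 of all 11998 genes.

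Dendritic cell markers, listed because such cells carry much class II, followed the populations in part. Their sum was at 91.5 to 133 CPM in CD9+ and 108 to 109 CPM in CX3CR1+ macrophages on day 1, and at 114 to 126 CPM and 193 to 201 CPM on day 14. Of the 10 tested, 6 were called higher and 1 lower on day 14 than on day 1 in CX3CR1+ macrophages. Of all 11998 genes, 287 were called higher and 416 lower in the same comparison of CX3CR1+ macrophages. On day 14 Irf4 was there at 55.9 and 53.8 CPM and Cd209a at 27.1 and 26.9 CPM. On day 1 they were at 9.75 and 6.95 CPM and at 4.92 and 3.08 CPM. Itgax, the marker called lower, went from 47.0 and 54.0 CPM on day 1 to 17.6 and 16.7 CPM on day 14. Flt3, a receptor of dendritic cell precursors, was at 21.1 to 29.9 CPM in F4/80− cells on both days and at 21.5 and 27.1 CPM in CX3CR1+ macrophages on day 14. The 5 markers of plasmacytoid dendritic cells found in the table summed on day 14 to 43.9 to 48.6 CPM in F4/80− cells and to 62.3 to 72.7 CPM in CX3CR1+ macrophages, although Siglech among them was at 3.92 to 4.58 CPM in F4/80− cells and at 1 count or fewer in CX3CR1+ macrophages. Of B cell genes, Cd79b was at 0.845 to 0.919 CPM on day 1 and at 3.36 to 3.45 CPM on day 14 in CD9+ macrophages, called higher. Pax5 had 2 and 43 counts and Ebf1 4 and 48 counts in CX3CR1+ macrophages on day 14, the higher in replicate 2. Their part in the levels of the class II genes was not tested.

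The genes most like the mean of the 3 chains over the 16 libraries were Frmd4b (Pearson's r = 0.989), Pros1 (0.982), Steap3 (0.979), Kctd17 (0.978) and Fubp3 (0.978), then Lgals3bp, Rftn1, Cdc42bpb, Pdxk and Spr at 0.974 to 0.975. Among the 8 genes, Cd74 had r = 0.996, Ciita 0.974, H2-DMb1 0.962, H2-DMa 0.929 and H2-Oa 0.616 with the same mean. The 16 libraries share the wide gap between neutrophils and the rest. Over the 12 libraries without neutrophils, the values were 0.977 for Cd74, 0.751 for Ciita, 0.603 for H2-DMb1, 0.459 for H2-DMa and -0.443 for H2-Oa, and Cd300lb (0.935) and Arntl (0.929) led the other genes.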

How the data were processed

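The labels and the study's methods state that RNA of sorted cells was made into SMART-Seq Stranded libraries, trimmed with Cutadapt, aligned to mm10 with STAR and counted in exons of Gencode M23, and the authors deposited raw read counts per gene without normalization. A gene was tested if the mean CPM of any of the 8 groups reached 3, which held for 11998 of 20200. All 16 libraries entered a single fit, in which every group had its own coefficient, in R 4.3.3 with edgeR 4.0.16 (TMM factors, glmQLFit, glmQLFTest), and p-values were adjusted by Benjamini-Hochberg over all genes tested. Following the study, a call needed both an adjusted p under 0.05 and a log2 fold change of 1 or more in size. SEs were derived from the F statistics, and 95% intervals from the SEs. CPM were scaled by the length of all annotated exons of a gene in Gencode M21, overlaps counted once, on the same assembly. For likeness, CPM were logged (base 2) after adding a prior count of 2. DESeq2 1.42.0, other scalings and filters, a replicate block and the removal of each library were tried as alternatives. The code was tested on simulated counts.

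The 8 genes, the lists of other genes and the tests were chosen with earlier results of these data known. The text names the 8 genes, those called from the list of 42 pathway genes where they are described, and the 10 genes most like the chains. RefSeq promoter windows matched 5 of the 8 genes, and the 2 windows of H2-DMa start away from the gene as the table places it and were not used. The replicates agreed at r = 0.935 (CD9+ macrophages, day 1) to 0.988 across genes and were not duplicates. The study pooled too few mice for a separate pool per library, so libraries of the same number and day were taken to share a pool. Their deviations from the group means correlated at 0.013 to 0.144, and the pool was a block in an alternative fit. With 2 pools a group, the spread behind a p-value was estimated from all 16 libraries, and each gene's estimate borrowed from other genes. The main fit treated libraries of a shared pool as independent.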

Additional observations from a re-analysis of the deposited data

Results flagged for a closer look

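The change from day 1 to day 14 differed between populations for the chains and Cd74, by the interaction term of the edgeR model with Benjamini-Hochberg adjustment over all genes. In F4/80− cells the change was lower than in CX3CR1+ macrophages by a log2 difference of -1.13 for H2-Aa (SE 0.26, adjusted p = 0.0455), -1.23 for H2-Ab1 (SE 0.24, adjusted p = 0.016), -1.41 for H2-Eb1 (SE 0.31, adjusted p = 0.0409) and -1.33 for Cd74 (SE 0.23, adjusted p = 0.00704). Against CD9+ macrophages it was -1.23 for H2-Aa (SE 0.26, adjusted p = 0.022), -1.03 for H2-Ab1 (SE 0.24, adjusted p = 0.0353) and -1.16 for Cd74 (SE 0.23, adjusted p = 0.0175). Leaving out any of the 8 libraries behind the former contrast ended the call of H2-Aa, with values of -0.95 (without replicate 1 of F4/80− cells on day 14) to -1.31 (without replicate 2). Cd74 lost its call there only without replicate 1 of F4/80− cells on day 14, at -1.29.

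Against neutrophils, the change in CX3CR1+ macrophages was higher by 1.47 for H2-Aa (SE 0.28, adjusted p = 0.00309), 1.81 for H2-Ab1 (SE 0.25, adjusted p = 0.000243), 1.53 for H2-Eb1 (SE 0.36, adjusted p = 0.0116), 2.03 for Cd74 (SE 0.23, adjusted p = 4.64e-05) and 2.40 for Ciita (SE 0.54, adjusted p = 0.00831). The change in CD9+ macrophages was higher by 1.57 for H2-Aa (SE 0.28, adjusted p = 0.00255), 1.61 for H2-Ab1 (SE 0.25, adjusted p = 0.00097), 1.38 for H2-Eb1 (SE 0.36, adjusted p = 0.0239) and 1.85 for Cd74 (SE 0.23, adjusted p = 0.000167). Without replicate 1 of neutrophils on day 1, H2-Eb1 was no longer called against either macrophage population, at 1.04 (CX3CR1+) and 0.89 (CD9+). Without replicate 2 of neutrophils on day 14, the same gene lost its call in both, at 1.45 (CX3CR1+) and 1.295 (CD9+), and Ciita lost its call in CX3CR1+ macrophages, at 1.76. Against CD9+ macrophages the call of H2-Eb1 also ended without replicate 1 of neutrophils on day 14 (1.47) and without replicate 2 of CD9+ macrophages on day 14 (1.302).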

How the results depend on the processing

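No called value of the 8 genes changed sign under any alternative, and 45 of 2120 values, called in neither setting, did, at up to 0.61 on the log2 scale as reported and up to 0.79 under the alternative. With the CPM minimum required in every group only H2-Aa, H2-Ab1, H2-Eb1 and Cd74 were left to test, which gave 4 calls in each comparison with neutrophils and in F4/80− cells against CX3CR1+ macrophages on day 14, and 0 in the latter on day 1 and between the macrophages on both days. Without a fold threshold, the calls over time were 1 in CD9+ macrophages, 1 in CX3CR1+ macrophages and 5 in F4/80− cells. On day 1 they were 7 in F4/80− cells against CX3CR1+ and 5 against CD9+ macrophages, and on day 14 they were 4 between the macrophages. More of all genes pass without that threshold. The shares of all genes given earlier belong to the main fit with the 2-fold threshold. The counts under the alternatives stand here without such a share and are descriptions only. Without a filter, F4/80− cells had 0 calls over time. In fits of only the libraries compared, the macrophages had 0 calls on day 1, and the change in F4/80− cells against that in CD9+ macrophages had 1.

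Leaving out 1 library, the calls were 0 to 1 (F4/80− cells over time), 3 to 5 (neutrophils over time), 1 to 3 (between the macrophages on day 14), 0 to 2 and 0 to 4 (change in F4/80− cells against that in CX3CR1+ and in CD9+ macrophages), and, for the change in each population against that in neutrophils, 3 to 5 (CX3CR1+ macrophages), 3 to 5 (CD9+ macrophages, with H2-DMa called lower at -1.33 without replicate 1 of neutrophils on day 1) and 0 to 1 (F4/80− cells). A group reduced to 1 library was assumed to vary like the others. H2-DMb1 on day 14 (F4/80− cells against CX3CR1+ macrophages) lost its call under DESeq2, 3 other scalings, no filter, the block and the compared libraries alone, at -0.94 to -0.997, and H2-Aa over time in neutrophils under DESeq2, those scalings and no filter, at -0.973 to -0.996. The cause was not tested.

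With the pool number as a replicate block within each day, the counts of calls were 0, 0, 1 and 5 over time in CD9+, CX3CR1+, F4/80− cells and neutrophils, and 7 in place of 8 in F4/80− cells against CX3CR1+ macrophages on day 14, where H2-DMb1 lost its call. The block changed no other call of the 8 genes. With scaling to library size alone, the share of called genes that were higher moved from 57.7% to 73.0% over time in CD9+ macrophages and from 22.8% to 45.0% in CX3CR1+ against CD9+ macrophages on day 1. It moved from 40.0% to 60.8% in F4/80− cells against CD9+ macrophages on day 1, and from 52.8% to 59.8% up to 68.2% to 78.2% in the comparisons with neutrophils. For the change over time it moved from 41.0% to 17.2% (CX3CR1+ against CD9+ macrophages) and from 34.98% to 15.7% (F4/80− cells against CD9+ macrophages). Depth limits H2-Oa most: it had 1 to 34 counts in libraries of neutrophils and CX3CR1+ macrophages, and its change over time had a standard error of 0.45 to 0.75 on the log2 scale.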
